A study of Mus musculus with 6 samples.

Results

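The occupancy of the chromatin scaffold protein WDR5 was compared between wild-type and mutant rescue lines of mouse embryonic stem cells (ESCs). The lines lacked endogenous Wdr5 and p53, carried an Rx:GFP knock-in, and were grown in 2i+LIF, the medium that holds ESCs in the naive state. One line was rescued with WDR5WT and the other with WDR5 carrying S91K and Y191F (WDR5S91KY191F), numbered as the labels give them. They are called the WT line and the mutant line below. The control line therefore shares both knockouts with the mutant line, so neither line is an unmodified ESC, and the labels do not say how the rescue protein was expressed or whether each line was 1 clone. The members were all peaks, that is all rows of the deposited WDR5 peak lists, on chromosomes 1 to 19. They numbered 10942 for the WT line and 26691 for the mutant line, 37633 of the 183983 rows in the 4 lists of the series, which also hold H3K4me3. Another 153 and 197 WDR5 peaks lay outside those chromosomes. Each list came from 1 library, so no difference below has a replicate check and no test was made. Peak lists carry no read totals, so the depth is unknown, and the number and width of peaks depend on it.

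WDR5 is a WD-repeat protein shared by the KMT2 and SETD1 complexes, which methylate histone H3 on lysine K4. Its trimethylated form, H3K4me3, marks the starts of active genes. WDR5 is also known as a chromatin partner of MYC and as a protein bound at promoters of ribosomal protein genes in many cell types. Transfer RNA (tRNA) genes, which come up below, are transcribed by RNA polymerase III from promoter elements inside the gene, among them the B box.

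The identity of the cells was checked with H3K4me3. All 10 promoters of ESC marker genes carried an H3K4me3 peak in each line. Of 10 fibroblast feeder markers, 8 carried one in the WT line and 6 in the mutant line. Col3a1 and Postn, which encode a fibrillar collagen and an adhesion protein of connective tissue, had none in either list, so most feeder marker promoters were marked and this mark alone does not separate the cell types. The Wdr5 gene held 2 WDR5 peaks in the WT line, the best with a fold enrichment of 2.35, and 1 in the mutant line at 1.80. Fold enrichment is the authors' own value for each peak over its background. Trp53, which encodes p53, held 1 peak in the WT line with a fold of 2.48 and 0 in the mutant line. These peaks do not check the knockouts, because a peak call can fall outside the altered part of a gene.

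Promoters of 5 genes show the classes of site on which the comparison turns. Rps6 and Rpl38, which encode proteins of the small and the large ribosomal subunit, had broad peaks in both lists. Meaf6, a subunit of histone acetyltransferase complexes, had a peak in the WT line alone. Ndufs7, a subunit of respiratory complex I, and Polr3e, a subunit of RNA polymerase III, had a peak in the mutant line alone and a tRNA gene beside the start used. Each sequence is the 250 bases before the start that the RefSeq promoter table gives for the gene on GRCm38.p6 (mm10 coordinates), written from 5′ to 3′ on the gene's strand. Capitals mark CCGGAAG, the core of the motif bound by ETS-family factors, in the first 3 sequences and GGTTCGA, the core of the B box of tRNA genes, in the others. The RefSeq span of the gene begins 344 bp farther upstream for Ndufs7, 762 bp for Rpl38 and 21 bp for Meaf6, so other transcripts of these genes may start there. Polr3e was chosen for printing after its values were seen.
Rps6, chr4:86857368-86857617, minus strand: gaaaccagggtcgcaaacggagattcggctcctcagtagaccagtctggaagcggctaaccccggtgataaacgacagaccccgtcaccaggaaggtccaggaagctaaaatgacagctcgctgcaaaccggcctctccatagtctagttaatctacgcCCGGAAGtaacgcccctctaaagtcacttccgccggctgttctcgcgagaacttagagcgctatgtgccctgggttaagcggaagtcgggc
Rpl38, chr11:114668330-114668579, plus strand: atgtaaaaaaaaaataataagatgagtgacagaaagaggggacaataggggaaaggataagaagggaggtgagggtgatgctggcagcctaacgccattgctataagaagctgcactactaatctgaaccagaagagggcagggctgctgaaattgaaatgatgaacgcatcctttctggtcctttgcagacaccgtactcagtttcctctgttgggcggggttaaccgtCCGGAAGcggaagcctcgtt
Meaf6, chr4:125084884-125085133, plus strand: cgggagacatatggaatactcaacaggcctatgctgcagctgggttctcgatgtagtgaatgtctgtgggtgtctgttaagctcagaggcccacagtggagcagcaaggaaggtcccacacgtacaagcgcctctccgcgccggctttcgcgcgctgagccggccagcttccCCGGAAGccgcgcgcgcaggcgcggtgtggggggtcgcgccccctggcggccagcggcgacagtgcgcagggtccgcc
Ndufs7, chr10:80249199-80249448, plus strand: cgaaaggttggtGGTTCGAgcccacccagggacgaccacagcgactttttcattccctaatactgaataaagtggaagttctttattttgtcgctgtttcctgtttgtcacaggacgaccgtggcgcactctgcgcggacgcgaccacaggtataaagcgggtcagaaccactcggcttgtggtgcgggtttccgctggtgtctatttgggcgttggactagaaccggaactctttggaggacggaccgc
Polr3e, chr7:120917528-120917777, plus strand: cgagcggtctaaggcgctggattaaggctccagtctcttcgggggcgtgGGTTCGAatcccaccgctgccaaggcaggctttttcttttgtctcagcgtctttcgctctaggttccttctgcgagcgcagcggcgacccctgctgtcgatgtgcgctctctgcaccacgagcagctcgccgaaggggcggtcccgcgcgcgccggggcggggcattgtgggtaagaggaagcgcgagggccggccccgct

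The capitals begin at base -91 from the start in Rps6, -20 in Rpl38, -78 in Meaf6, -238 in Ndufs7 and -201 in Polr3e. At Rps6 the WT line peak was 1223 bp wide with a fold of 17.1 and the mutant peak 1100 bp wide with a fold of 14.3. Their summits lay 145 and 147 bp into the gene. The Rpl38 peaks were 1472 bp and 1013 bp wide, with folds of 16.5 and 12.4. The Meaf6 peak of the WT line was 473 bp wide with a fold of 4.64 and its summit 143 bp into the gene, and the start had no mutant peak within 1 kb. In the mutant line the Ndufs7 peak was 840 bp wide with a fold of 8.84, and its summit lay 326 bp before the start used (-326). The summit was still inside the RefSeq span of Ndufs7, near the tRNA gene n-TNgtt7, which lies in that span at chr10:80249159-80249232. The peak also covered the tRNA gene n-TFgaa3 at chr10:80248964-80249036. The Polr3e peak was 429 bp wide with a fold of 4.09 and its summit at -240, near n-TLaag4 at chr7:120917517-120917598. Both starts had no WT peak within 1 kb. The B box matches lie inside n-TNgtt7 and n-TLaag4. The printed capitals therefore belong to the tRNA gene and not to a promoter element of Ndufs7 or Polr3e.

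The first question was where in the genome the peaks of each line lay. A peak was placed by its summit, as promoter when the summit was within 1 kb of the start of a protein-coding gene. Other summits inside a protein-coding gene were placed as gene body, and the rest as intergenic. Intergenic peaks can thus lie at genes of other kinds, such as tRNA genes. For 4208 of 20665 genes the reference tables give no strand, and either end of those genes counted. In the WT line 31.6% of peaks were at promoters (95% exact binomial interval 30.8 to 32.5%), against 7.40% (7.09 to 7.72%) in the mutant line. All intervals here are Clopper-Pearson intervals and cover counting error only. Because the mutant list is longer, the comparison was repeated with the 10942 mutant peaks of highest −log10 p, called the equal-length list below. Its promoter share was 10.8% (10.3 to 11.4%). Equal length did not mean an equal limit, since that list ended at a −log10 p of 3.48 and the WT list at 2.00. Comparisons at equal length below therefore include WT peaks weaker than any mutant peak kept. Promoter windows made up 2.06% of the 2461 Mb covered by the autosomes, a smaller share than that of the peaks in either line. Peaks with a −log10 q of 2 or more numbered 1133 (10.4%) in the WT list and 1241 (4.65%) in the mutant list. A −log10 q of 0 was given for 43.1% of WT peaks and 34.9% of mutant peaks. In numbers, the WT line had 3461 promoter peaks, the mutant line 1975 in the deposited list and 1187 in the equal-length list.

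The difference was taken up by intergenic peaks more than by gene bodies. Gene bodies held 32.3% of WT peaks and 35.1% of the equal-length mutant list, next to 38.7% of the genome length. Intergenic space held 36.1% and 54.0%, next to 59.3% of the length. The mutant list outside promoters therefore divided between gene bodies and intergenic space at 4.03 and 4.06 peaks per Mb, nearly the same density, whereas the WT line had 3.71 and 2.71. Which gene-body peaks lay in exons and which in introns was not analysed here.

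Promoter peaks of both lines sat just inside the gene. Among the 16457 genes whose strand is given, 2878 (17.5%) had a WT peak within 1 kb of the start and 339 (2.06%) within 1 kb of the far end. In the equal-length mutant list 1001 (6.08%) had a peak at the start and 223 (1.36%) at the far end. The median summit lay 162 bp into the gene in the WT line, with 73.5% of summits downstream of the start. In the equal-length mutant list the median was 117.5 bp and the downstream share 64.3%. The most filled 250 bp interval was the first one after the start in both, with 1032 WT summits and 313 mutant summits.

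**Figure D1:**
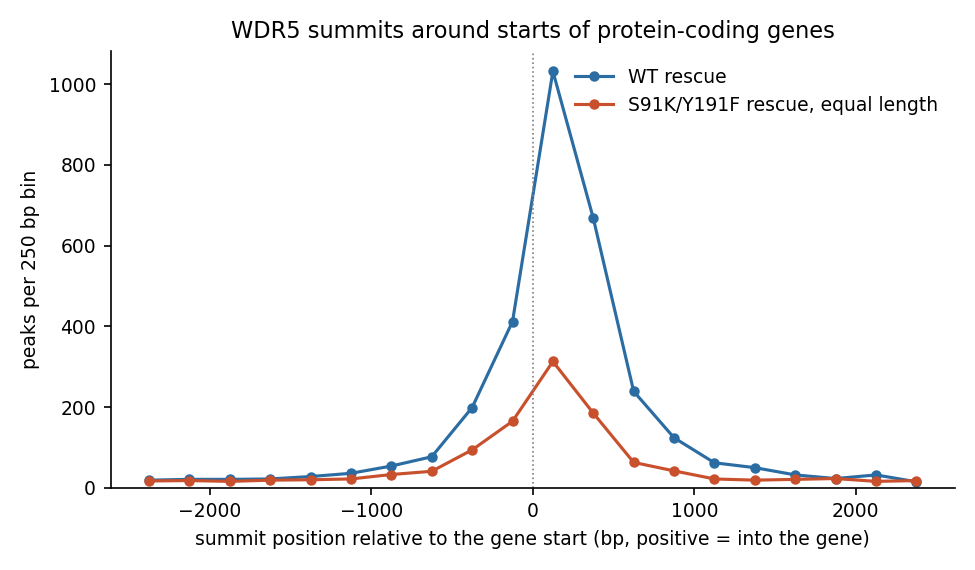
Number of WDR5 peaks per 250 bp interval of distance between the peak summit and the start of a protein-coding gene of known strand, in bp, for the WT rescue (blue) and the equal-length S91K/Y191F rescue list (orange). Both lines peak in the first interval after the start, at 1032 and 313 peaks, and the outermost intervals hold 15 to 19.

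Most promoter peaks overlapped the H3K4me3 list of their own line, and the share was lower in the mutant line. It was 95.4% in the WT line and 87.8% in the equal-length mutant list. Outside promoters the gap was wider. H3K4me3 overlapped 23.0% of WT gene-body peaks and 9.14% of equal-length mutant ones, and 23.0% and 11.1% of intergenic peaks. Over all peaks the shares were 45.9% in the WT line, 18.7% in the equal-length list and 12.02% in the deposited mutant list.

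The lines shared few peaks overall and a larger part of their strongest ones. Of the WT peaks 1312 (11.99%) overlapped a mutant peak by at least 1 bp, and 1319 mutant peaks (4.94%) overlapped a WT peak. At equal length the shares were 9.55% and 9.49%. Among the 100 highest-ranked WT peaks, 99.0% overlapped some mutant peak, and among the 100 highest-ranked mutant peaks 93.0% overlapped some WT peak. Between lists cut to the same number the shares were lower, at 60% and 59% for the 100 highest-ranked peaks, 51.2% in each line for 500 and 40.2% for 1000. From rank 5001 on, 4.70% of WT peaks overlapped some peak of the longer deposited mutant list. Of the equal-length mutant peaks from that rank on, 2.78% overlapped some WT peak. Over all peaks, those at promoters were shared more often: 19.4% of WT promoter peaks overlapped a mutant peak, compared with 6.74% in gene bodies and 10.2% in intergenic space. In the equal-length mutant list 43.0% of promoter peaks overlapped a WT peak, compared with 4.82% and 5.78%. Among WT peaks with a −log10 q of 2 or more this order was gone, with 52.2% at promoters, 52.7% in gene bodies and 51.8% in intergenic space. Among such mutant peaks it was 74.9%, 45.3% and 38.7%.

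**Figure D2:**
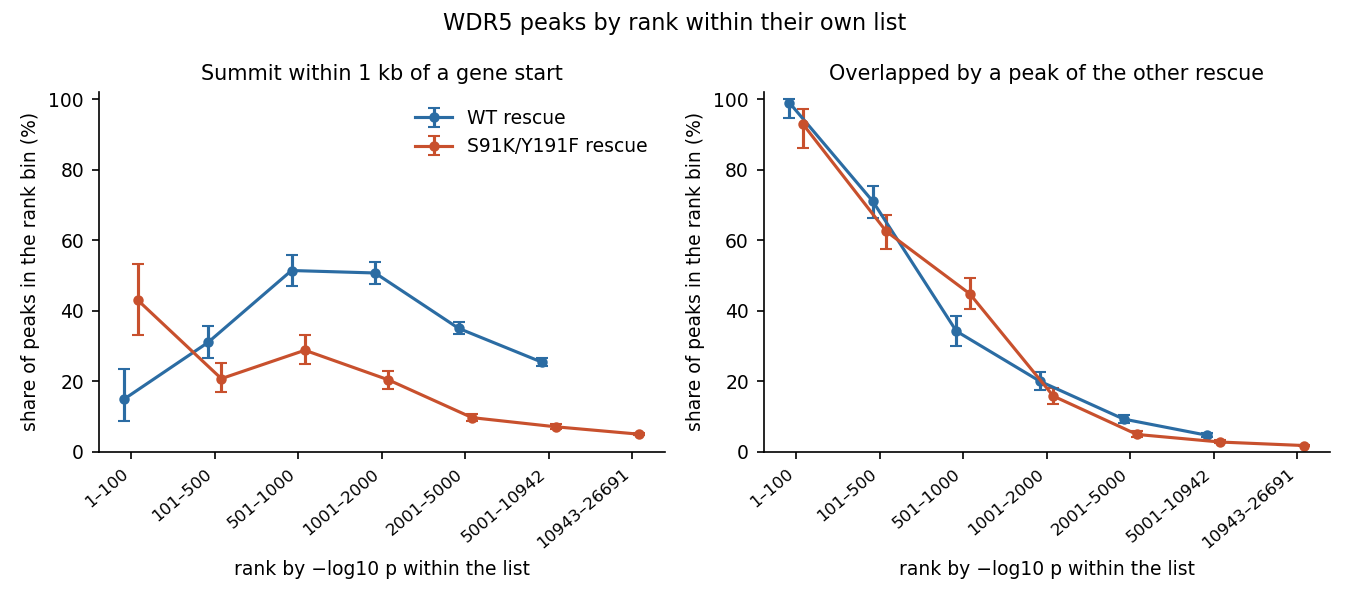
Share of peaks in each bin of rank by −log10 p, in percent with exact 95% binomial intervals, whose summit is within 1 kb of a gene start (left) and that overlap any peak of the other line's deposited list (right). The WT rescue stays above the S91K/Y191F rescue at promoters from rank 101 on, while overlap drops in both lines from over 90% to under 5%.

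The promoter share did not run the same way along both rankings. In the 100 highest-ranked peaks it was 15.0% in the WT line and 43.0% in the mutant line, the reverse of the whole lists. It reached 51.4% in the WT peaks ranked 501 to 1000 and 50.7% in those ranked 1001 to 2000, where the mutant line had 28.8% and 20.4%. In the last part of the equal-length lists it was 25.4% and 7.10%, and in the mutant peaks beyond them 5.003%.

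The kinds of site behind these shares were counted in lists of the same number of peaks. Of the 100 highest-ranked WT peaks, 48 were of 270 to 290 bp with a fold of 5 or more, and 24 had a fold under 3 despite a −log10 p over 20. The corresponding mutant counts were 19 and 26, and 27 of the mutant peaks were at promoters of cytosolic ribosomal proteins, compared with 8 WT peaks. By 500 peaks the ribosomal protein counts were level, at 42 and 43, while 178 mutant peaks and 4 WT peaks lay within 200 bp of a tRNA gene. By 1000 peaks, 342 WT peaks and 195 mutant peaks belonged to the remaining promoters. The limits for these kinds were chosen after the data were seen.

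**Figure D3:**
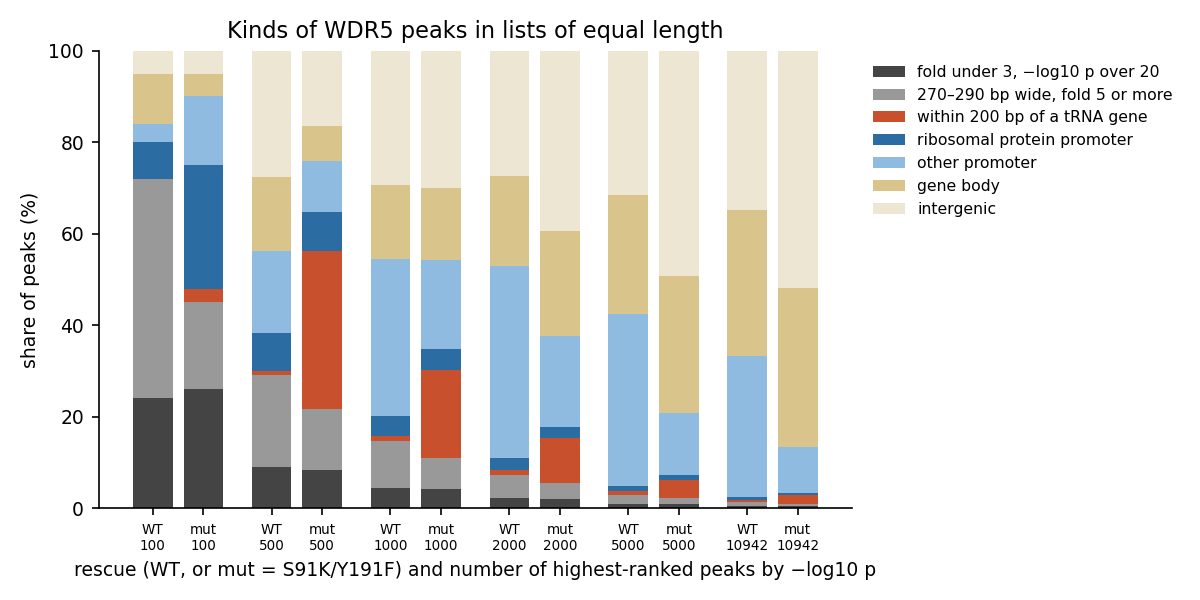
Share of peaks of each kind, in percent, among the 100 to 10942 highest-ranked WDR5 peaks of the WT rescue and of the S91K/Y191F rescue (mut), each peak counted once in the order of the legend. The tRNA class holds 34.6% of the 500 highest-ranked mutant peaks and 0.8% of the WT ones, and other promoters hold 30.8% of the 10942 WT peaks.

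Peaks were narrow in both lines. The median width was 205 bp (quartiles 163 and 272 bp) in the WT line, 197 bp (157 and 250 bp) in the mutant line and 186 bp in the equal-length list. The smallest width called was 151 bp, and 17.6% of WT peaks, 21.0% of mutant peaks and 20.4% of the equal-length list had exactly that width. Peaks of 1 kb or more numbered 82 in the WT line and 128 in the mutant line, of which 127 were in the equal-length list. Thus the mutant list held both more minimal peaks and more broad ones at equal length. Promoter peaks were wider than the rest, with medians of 250 bp in the WT line and 268 bp in the equal-length mutant list, against 182 to 192 bp elsewhere.

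**Figure D4:**
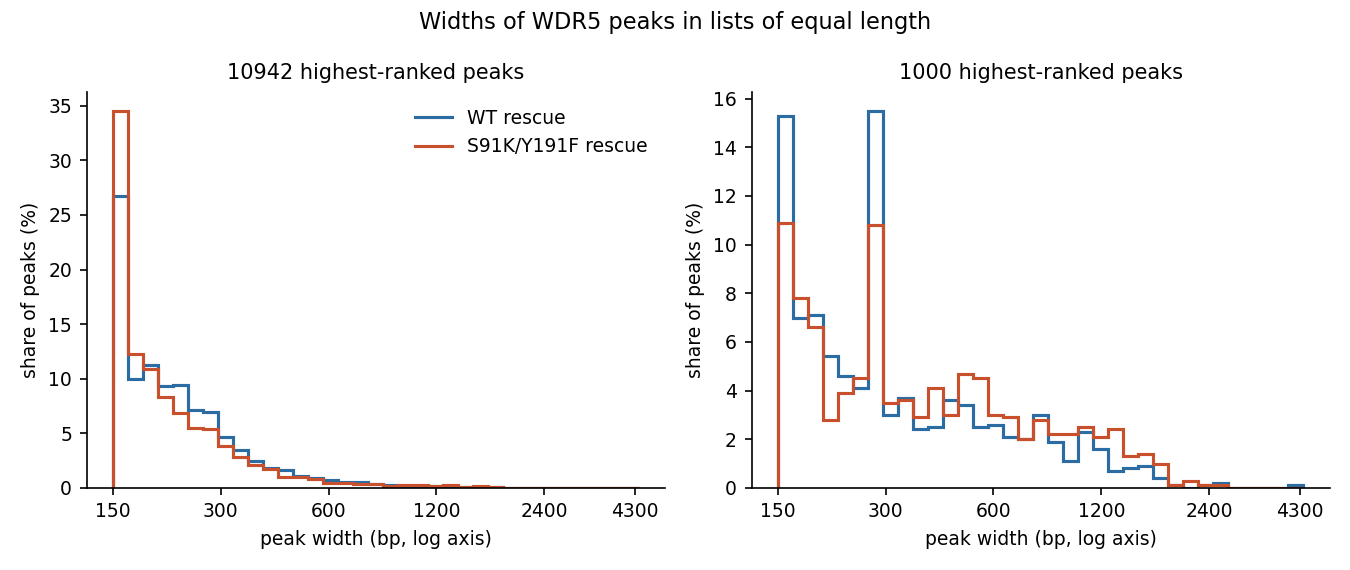
Share of WDR5 peaks by width, in percent per bin on a log axis of bp, for the WT rescue (blue) and the S91K/Y191F rescue (orange) in lists of 10942 (left) and 1000 (right) highest-ranked peaks. The spike near 283 bp in the right panel holds peaks of nearly constant width, and the medians there are 281 bp for WT and 316 bp for S91K/Y191F.

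Several of the widest peaks were at ribosomal protein, translation or chromatin genes, and in the mutant line also beside tRNA genes. In the WT line the widest, 4305 bp at chr17:39842997-39847301, was intergenic and had a fold of only 2.54 at a −log10 p of 82.2. Whether it lay in a gene that is not protein-coding was not analysed here. Next came Brd2, a reader of acetylated histones, at 2578 bp, Tasor, a subunit of a heterochromatin silencing complex, at 2522 bp, Rpl36, a large-subunit ribosomal protein, at 2261 bp and Eif4a2, a translation initiation helicase, at 1893 bp. In the mutant line they were Rpl36 at 2561 bp, Pradc1, a secreted glycoprotein, at 2372 bp, Aloxe3, an epidermal lipoxygenase, at 2091 bp, Slc25a12, a mitochondrial aspartate-glutamate carrier, at 2055 bp, and an intergenic peak of 2039 bp at chr11:69040054-69042092. The Aloxe3 and the intergenic peak lay within 200 bp of tRNA genes. The Brd2 peak was 1745 bp in the mutant line, and the Pradc1 peak 1568 bp in the WT line. At Eif4a2 the deposited mutant list had an overlapping peak of 849 bp with a fold of 1.92, which ranked below the equal-length list.

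At the level of genes, 3608 of 20665 protein-coding genes (17.5%) had a WT peak touching the 1 kb window around the start. The mutant line had 2091 (10.1%) in the deposited list and 1271 (6.15%) in the equal-length list. Under the stricter limit of 2 on −log10 q, 526 (2.55%) and 375 (1.81%) genes remained occupied. The WT list and the equal-length mutant list had 681 genes in common, which is 18.9% of the WT genes and 53.6% of the mutant genes. Peaks inside the gene away from promoters were found in 13.3% of genes in the WT line and 13.1% in the equal-length list.

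Cytosolic ribosomal proteins were the most often occupied of the protein-coding groups in both lines. Of 84 genes, 63 (75%) had a WT promoter peak and 48 (57.1%) a peak in the equal-length mutant list, with 47 in both. The shares over all protein-coding genes were 17.5% and 6.15%. Under the limit of 2 on −log10 q it was 45 (53.6%) in each line, next to 2.55% and 1.81% of all genes. The median rank over all occupied members was 169 in the WT line and 89.5 in the mutant line, but the WT count holds more weak members. Over the 47 genes in both lists the median ranks were 140 and 87, and the median widths 1095 bp and 1212 bp. Where the strand is given, the median summits lay 151 and 147 bp into the gene. Rpl13 had the highest-ranked WT peak of the group, with a fold of 13.3 against 15.0 in the mutant line, and Rpl36, Rps6 and Rpl38 followed with similar pairs of values. Folds are each list's own and are set side by side here without a comparison of size.

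Other genes of protein synthesis had peaks in the WT line at a share well above its 17.5% background. They had peaks less often in the equal-length mutant list, where the background was also lower, at 6.15%. Of 33 translation factors 22 (66.7%) were occupied in the WT line and 5 (15.2%) in the equal-length mutant list, above the background in both. At a −log10 q of 2 or more it was 7 (21.2%) and 4 (12.1%), next to backgrounds of 2.55% and 1.81%. Eef2, the translocation factor of elongation, Eef1g, Eif3d and Eif4g1, the scaffold of cap-dependent initiation, had peaks of 786 to 1480 bp in the WT line and of 869 to 1591 bp in the mutant line. Eef1b2, Eif4h, Tpt1 and Eif1a had a WT peak alone, with folds of 3.05 to 3.79. Of 24 ribosome biogenesis genes 13 (54.2%) were occupied in the WT line and 1 (4.17%), Gar1, in the equal-length mutant list. The WT peaks without a mutant one included nucleolin (Ncl, fold 3.998), the ribosomal RNA methyltransferases Nop2 (3.57) and Fbl (3.16), and Nop58 (3.05). In the deposited mutant list 7 translation factors (21.2%) and 4 biogenesis genes (16.7%) were occupied, next to 10.1% of all genes.

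Splicing genes followed the same pattern. Of 53 splicing factors and hnRNPs, 28 (52.8%) were occupied in the WT line and 7 (13.2%) in the equal-length mutant list. Snrpb, a core protein of spliceosomal particles, and Sf3b3, a subunit of the branch-point complex, had broad peaks in both lines, with folds of 14.7 and 6.45 in the WT line and 9.24 and 12.1 in the mutant line. Srsf7, Hnrnph1, Hnrnpu and Srsf10 had a peak in the WT line alone, with folds of 3.16 to 3.89. The remaining groups are read against the shares over all protein-coding genes, 17.5% in the WT line and 6.15% in the equal-length list. Oxidative phosphorylation subunits counted 21 of 75 (28%) in the WT line and 3 (4%) in the equal-length list, and proteasome subunits 11 (28.9%) and 5 (13.2%) of 38. Mitochondrial ribosomal proteins, with 15 (19.2%) and 6 (7.69%) of 78, were near both background shares. Glycolytic enzymes counted 5 (38.5%) and 1 (7.69%) of 13. Of 73 histone genes 25 (34.2%) and 7 (9.59%) were occupied. Many histone genes have near-identical copies, so reads can be divided among them.

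Pluripotency genes and the genes of WDR5's own complexes had promoter peaks in the WT line alone. Of 24 naive pluripotency genes 7 (29.2%) were occupied in the WT line and 0 in the deposited mutant list, where the shares over all genes were 17.5% and 10.1%. In groups of this size a background of 10.1% gives few occupied genes, so a count of 0 is not read as particular to them. They were Sox2 (fold 3.63), Klf2 (2.69), Utf1 (3.13), Tfcp2l1 (2.89), Lifr (2.89), Nanog (2.56) and Klf4 (2.06), all encoding transcription or chromatin factors of the naive network save Lifr, the receptor subunit for LIF. Of 18 genes of the KMT2 and SETD1 complexes 8 (44.4%) were occupied in the WT line and 0 in the deposited mutant list. The highest-ranked were the methyltransferase gene Kmt2d (fold 4.11), Wdr82 (3.58), a SETD1 subunit, Kmt2a (3.12) and Psip1 (2.67), a chromatin tether of KMT2A complexes, and Wdr5 itself, Dpy30, Rbbp5 and Paxip1 followed. Most of these peaks were weak. Only Sox2 among the pluripotency genes, and Kmt2d, Wdr82 and Kmt2a among the complex genes, had a −log10 q of 2 or more. A missing peak means that no row was called at the authors' limit, and at an unknown depth it does not show that WDR5 was absent.

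Targets of p53, which both lines lack, were occupied in 8 of 23 cases (34.8%) in the WT line and 4 (17.4%) in the equal-length mutant list, next to 17.5% and 6.15% of all genes. Rrm2b, a ribonucleotide reductase subunit, and Ccng1, a cyclin, had a peak in both. Bbc3, Gadd45a and Btg2, which act in cell death and growth arrest, had one in the WT line alone, and Zmat3 and Trp53inp1 in the mutant line alone. Of 1104 olfactory receptor genes, which are silent in ESCs, 10 (0.91%) were occupied in the WT line and 13 (1.18%) in the equal-length list. In the deposited mutant list it was 31 (2.81%), with 0 in both lines. All 3 shares were far below those over all genes, 17.5%, 6.15% and 10.1%. They were the one protein-coding group with more occupied members in the equal-length mutant list than in the WT list.

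**Figure D5:**
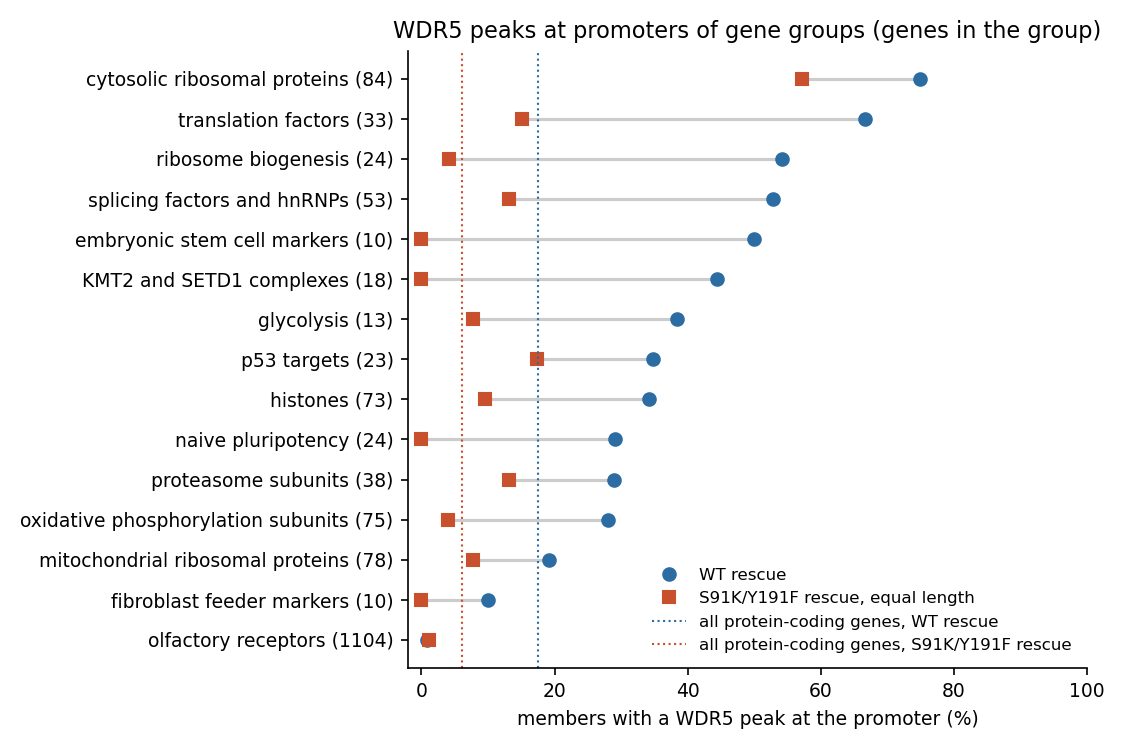
Share of each gene group, in percent of its members (number in parentheses), with a WDR5 peak touching the 1 kb window around the start, in the WT rescue (blue circles) and the equal-length S91K/Y191F rescue list (orange squares). Dotted lines mark the shares over all protein-coding genes, 17.5% and 6.15%, and the cytosolic ribosomal proteins lie farthest right in both lines.

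The strongest promoters with overlapping peaks in both lines fell into 2 kinds. H2-D1, a class I histocompatibility gene, B3gnt3, a glycosyltransferase, and Pde4a, a cyclic AMP phosphodiesterase, had peaks of 276 to 283 bp of the same width in both lists. Their WT folds were 25.7, 22.8 and 20.6, and their mutant folds 16.5, 7.06 and 10.6. Brd2, Eef2 and the 4 ribosomal protein genes Rpl13, Rps6, Rpl38 and Rpl36 had peaks of 969 to 2578 bp in the WT line.

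The promoter peaks of highest rank in the WT line that no mutant peak overlapped were much weaker. Cmtm4, a membrane protein gene, was first at rank 263 with a fold of 4.10. Jdp2, a repressor of AP-1 genes, and Ripply3, a transcriptional corepressor, had peaks of 283 bp with folds of 5.12 and 5.19. Peaks of this kind are not read as WDR5 occupancy, for the reason given below. The others were Zfp992, Smarcad1, a chromatin remodeller, Gm3739, Twistnb, a subunit of RNA polymerase I, Cbx6, a Polycomb protein, Meaf6 and Mgmt, a DNA repair enzyme for alkylated guanine, with folds of 3.28 to 4.64. In the mutant line the corresponding peaks began at rank 115, and 9 of 10 lay within 200 bp of a tRNA gene. These were Ndufs7 (fold 8.84), Prmt5 (10.8), an arginine methyltransferase, Fbxo31 (8.76), a ubiquitin ligase adaptor, Ang (10.6), a ribonuclease, Ilf2 (6.62), a double-stranded RNA-binding factor, Lta4h (6.10), a leukotriene enzyme, Tia1 (6.36), a stress granule protein, Psmb3 (5.11), a proteasome subunit, and Plekhg2 (5.30). The tenth was Rps29, a small-subunit ribosomal protein, with a fold of 4.97. Psmb3 also had a separate WT peak of 182 bp in its promoter window, with a fold of 2.41.

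Of the gene groups described, tRNA genes were the one occupied more often in the mutant line under each limit on the lists. Of 391 tRNA genes 118 (30.2%) had a WT peak within 1 kb, 277 (70.8%) a mutant peak and 274 (70.1%) a peak of the equal-length list. Under the limit of 2 on −log10 q, 34 (8.7%) and 269 (68.8%) were occupied. In all, 117 had a peak in both lists. Over the occupied tRNA genes, each taken with its highest-ranked peak, the median rank was 2900 in the WT line and 276 in the equal-length list. A peak counted once for each neighbouring tRNA gene, and the 118 and 274 genes are not the same set. Many tRNA genes have near-identical copies, and how reads that match several copies were treated is not given in the sources used here.

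The tRNA peaks also differed in shape and placement. Peaks with a summit within 200 bp of a tRNA gene numbered 59 in the WT line and 208 in the mutant line. Their median width was 212 bp in the WT line and 519.5 bp in the mutant line, where tRNA genes have a median length of 73 bp. The peak covered the whole tRNA gene in 19 of 59 WT cases and in 194 of 208 mutant cases. Summits mostly lay outside the gene, at a median distance of 85 bp in the WT line and 33 bp in the mutant line. Of the 59 WT peaks 58 overlapped a mutant peak, and of the 208 mutant peaks 67 overlapped a WT peak. H3K4me3 peaks of the same line overlapped 98.3% and 91.3% of them. At n-TNgtt14, an asparagine tRNA gene by its name, the fold was 2.06 in the WT line with a width of 214 bp, and 9.53 in the mutant line with 521 bp. Beside n-TAagc12 and n-TVaac2, which lie on chromosome 13, the mutant line had 1 peak of 835 bp with a fold of 12.5 and the WT line none within 1 kb.

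Spacing and clustering depended on the length of the list. The median gap between neighbouring peaks was 99.3 kb in the WT line, 58.8 kb in the mutant line and 137 kb in the equal-length list. The share of peaks within 10 kb of another was 21.0% (20.3 to 21.8%) in the WT line, 24.1% (23.6 to 24.6%) in the mutant line and 14.0% (13.3 to 14.6%) in the equal-length list. The WT peaks were thus closer together than those of the equal-length list, but among peaks with a −log10 q of 2 or more the order was reversed, with 13.3% clustered in the WT line and 23.3% in the mutant line. Runs of 5 or more peaks went the other way, with 10 in the WT line and 22 in the equal-length list. Of these, 11 mutant runs held mainly tRNA peaks, compared with 1 WT run.

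The longest runs were at different kinds of locus. Each list had one at chr9, of 15 peaks in the WT line (chr9:3000426-3038251) and 17 in the mutant line, all with folds between 1.42 and 3.06. On chromosome 13 the mutant line had 17 peaks at chr13:21906947-21949007, of which 14 were tRNA peaks, 14 at chr13:23425580-23467220, all tRNA peaks, and 12 at chr13:21233897-21279922, of which 10 were tRNA peaks. The WT line had 3 peaks in each of these runs. Chromosome 13 held 83 of the 208 mutant tRNA peaks and 14 of the 59 WT ones. The WT line had 8 peaks at chr14:52294898-52305088, across Tox4 and Mettl3, an RNA adenosine methyltransferase gene, where the mutant line also had 8. The origin of the reads at Mettl3 was not tested, so that run is not read as a cluster of WDR5 sites. At chr6:47739742-47758355 the WT line had 7 peaks and the mutant line 8. A pair of WT runs was chosen after its values were seen. The histone gene run at chr13:23542862-23572240 had 6 WT peaks and 1 mutant peak, and the run at Ptma, which encodes prothymosin alpha, had 5 and 0.

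The chromosomes differed in the balance of the lines. The ratio of equal-length mutant peaks to WT peaks ran from 0.69 on chromosome 11 to 1.31 on chromosomes 1 and 14. Chromosome 8 had the highest density in both lines, 7.51 WT peaks and 14.2 mutant peaks per Mb. Across the 19 chromosomes, the WT density followed the density of protein-coding genes (Spearman's rank correlation 0.80, Pearson's r 0.50), while the mutant density did not to the same degree (rank correlation 0.09, and 0.21 at equal length). The ratio had a rank correlation of -0.66 with gene density. These correlations describe chromosomes of 1 library per line and carry no p-value.

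Promoter sequence was compared between classes of gene through 20085 RefSeq windows of 300 bases around the starts of 16457 genes. The ratio of observed to expected CpG had a median of 0.87 in windows with a peak in both lists, 0.84 with a WT peak alone, 0.79 with a mutant peak alone and 0.45 with neither, where a mutant peak was taken from the equal-length list, and a WT peak alone means no peak in the deposited mutant list. The ETS motif CCGGAAG, searched on both strands, was found in 23.5% (20.2 to 27.0%) of windows occupied in both lists, 20% (18.4 to 21.6%) with a WT peak alone, 16.0% (12.9 to 19.4%) with a mutant peak alone, 9.94% with neither and 11.9% of all windows. The YY1 motif AANATGGC was in 11.98%, 10.8%, 5.70% and 5.33%, and in 6.36% of all. Ribosomal protein windows had the ETS motif in 34.7% and the YY1 motif in 22.7% of 75 windows. Without them, the windows occupied in both lists still had 22.5% and 11.1%.

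The E-box CACGTG, the element bound by MYC, was in 15.8%, 11.5%, 11.6% and 6.64% of windows in the same order, and in 7.89% of all. The sequence TATAAA was rarer in occupied windows, at 6.71%, 6.48% and 7.98%, than in windows with neither, at 14.3%, and in 12.7% of all. The B box core GGTTCGA was in 0.96% of windows occupied in both lists (6), 1.65% with a WT peak alone (41) and 1.71% with a mutant peak alone (9). It was in 0.94% of windows with neither and in 1.04% of all (209). No motif contains another. They were chosen after the data were seen, and a match is not a binding site. Median GC content was 62.8% with both, 64.3% with a WT peak alone, 62.3% with a mutant peak alone and 54.7% with neither. The part of GC and CpG content in the motif shares was not tested.

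Peaks of nearly constant width recurred at identical places in both lists. Of the 101 WT peaks of 270 to 290 bp with a fold of 5 or more, 87 overlapped a mutant peak and 66 had both ends identical to it. In the mutant list it was 61 and 52 of 67. They lay mostly away from promoters, with 40 of the WT ones in gene bodies and 55 in intergenic space. The highest folds of the WT list were among them, at Ube2e2, a ubiquitin-conjugating enzyme, with 63.1 in the WT line and 44.2 in the mutant line, Arl15, a small GTPase, with 63.0 and 20.5, and Cdh20, a cadherin, with 50.7 and 17.7. Ptprd, a receptor phosphatase, had 33.1 in the WT line and 11 in a mutant peak of 320 bp. Whether the reads under such peaks came from the chromosomal locus was not tested, so these folds are not read as WDR5 occupancy. The same holds for the peaks at H2-D1, B3gnt3, Pde4a, Jdp2 and Ripply3.

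Peaks of low fold and very high −log10 p were likewise common to both lists. Of 45 WT peaks with a fold under 3 and a −log10 p over 20, 39 overlapped a mutant peak, and of 42 mutant ones 37 overlapped a WT peak. The first-ranked peak of both lists was one of them, at chr2:98666627-98667226 in the WT line with a fold of 1.57 and a −log10 p of 2572, and with a fold of 1.67 and a −log10 p of 3641 in the mutant line. The highest-ranked mutant gene-body peak, at Chl1, a neural adhesion gene, was also of this kind, with a fold of 2.01, and had no overlapping WT peak. The part that such positions play in the overlap of the highest-ranked peaks was not tested.

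Broad gene-body peaks of high fold stood at genes for readers and enzymes of RNA methylation. Ythdf3, a reader of methylated adenosine, had a peak of 1830 bp with a fold of 47.2 in the WT line and of 1790 bp with 34.4 in the mutant line. Ythdf1, a related reader, had one of 1603 bp with 32.7 and of 1783 bp with 31.2. Ythdf2 had a best fold of 23.9 and 9.90, the demethylase gene Alkbh5 30.9 and 11.3, and Mettl3 22.0 and 9.36. Of the 14 genes of this pathway examined, these 5 were the ones with any peak at a −log10 q of 2 or more, in both lists, and Fto, Wtap and Cbll1 had no WT peak. Here too the origin of the reads was not tested, so the folds are not read as WDR5 occupancy. This gene group was singled out after its values were seen.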

How the data were processed

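WDR5 and H3K4me3 were profiled by chromatin immunoprecipitation sequencing after fixation in 1% PFA for 10 minutes, per the labels' protocols, with 1 library per line and antibody. The submitters' processing notes name BWA 0.7.17-r1188, MACS2 2.1.2, Picard and SAMtools, and the mm10 build. The settings and the control of each list are not given in the sources used here. Each deposited list belongs to 1 library and holds, in the authors' units, a fold enrichment (a ratio), a −log10 p, a −log10 q, a summit offset and a score for each peak. The lowest −log10 p was 2.00. The input libraries were not analysed here.

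Peaks on chromosomes 1 to 19 were ranked by −log10 p, with ties broken by fold and then position. The equal-length mutant list ended at a −log10 p of 3.48, where 41 peaks tied and 8 were kept. Overlap needed at least 1 bp. Genes came from RefSeq tables on GRCm38.p6, with starts for 16457 of 20665 protein-coding genes, and 391 tRNA genes. Genes without a strand counted at either end, which can add far-end peaks. A summit gave a peak its position, and any overlap with the 1 kb window made a gene occupied. Depth is unknown, so intervals cover counting error only. No test was made between lines, because each has 1 library.

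Named genes were those of highest −log10 p: 10 promoters overlapped in both lists, 10 in each line alone, 5 gene-body and 5 intergenic peaks, the 5 widest peaks and the 3 longest runs of each line, up to 4 members of each gene group per class, Wdr5 and Trp53. Not every gene that the rule takes is reported here. The members, gene groups, motifs and limits were chosen with earlier results of these data known. Alternatives were a −log10 q of at least 2, equal length, removal of peaks of 270 to 290 bp with a fold of 5 or more, a 2.5 kb window, all annotated genes, a reciprocal overlap of 50% and a 50 kb gap. Others were added after seeing the data: genes with a given strand, either end of every gene, and no peaks at tRNA genes. Overlap counts and gene assignment were tested on simulated data and against bedtools 2.31.1. Python 3.11.15, pandas 2.3.3, numpy 2.4.6, scipy 1.17.1 and matplotlib 3.10.9 were used.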

Additional observations from a re-analysis of the deposited data

How the results depend on the processing

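The order of the lines held for the promoter share under the settings given here, though not in the 100 highest-ranked peaks, where it was 15.0% and 43.0%, and at 500 peaks the shares were 27.8% and 25.2%. The share was 40.4% for the WT line and 26.0% for the mutant line with −log10 q at 2 or more, 36.4% and 10.3% with a 2.5 kb window, 36.01% and 11.01% with all annotated genes, 25.6% and 5.80% with genes of given strand, 29.8% and 7.91% with either end of every gene, and 10.8% for the equal-length mutant list. The shared share was 38.0% and 34.7% at that −log10 q in both lists, 9.55% and 9.49% at equal length, 11.3% and 4.61% without peaks 270 to 290 bp wide, and 7.42% and 3.04% with a reciprocal overlap of 50%. The order of the median widths turned at that −log10 q, with 281 bp and 283 bp, and held at equal length, with 186 bp for the mutant line. The clustered share was 13.3% and 23.3% at that −log10 q and 51.9% and 68.9% with a 50 kb gap, and its order turned at equal length, with 14.0% for the mutant line. Leaving out peaks at tRNA genes moved neither the promoter nor the clustered share of the deposited lists outside its interval. This setting, like the strand and gene-end ones, was chosen after seeing the data. Such peaks were only 0.54% of the WT list and 0.78% of the mutant list, so these shares could hardly move. At a −log10 q of 2 or more they were 1.24% of WT peaks and 16.1% of mutant peaks. Their part in the clustered share at that limit was not tested.

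Occupied protein-coding genes numbered 526 (2.55%) and 375 (1.81%) at that −log10 q and 1271 (6.15%) in the equal-length mutant list. Group shares near these are not read as particular to the group. In the WT line at that −log10 q, 0 mitochondrial ribosomal proteins, 7 translation factors (21.2%) and 4 ribosome biogenesis genes (16.7%) were occupied. Of the other protein-coding groups it had 2 oxidative phosphorylation subunits (2.67%), 1 proteasome subunit (2.63%), 8 splicing genes (15.1%) and 1 histone (1.37%). It also had 1 naive pluripotency gene (4.17%), 3 KMT2 and SETD1 genes (16.7%), 1 p53 target (4.35%) and 0 glycolytic genes. The last counts were 1 ESC marker (10%), 0 feeder markers, 1 olfactory receptor (0.09%) and 34 tRNA genes (8.7%). The mutant line counted 1 mitochondrial ribosomal protein (1.28%), 4 translation factors (12.1%), 0 ribosome biogenesis genes and 1 oxidative phosphorylation subunit (1.33%). It also had 1 proteasome subunit (2.63%), 2 splicing genes (3.77%) and 3 histones (4.11%). Its counts of p53 targets, glycolytic genes, feeder markers and olfactory receptors were 0. At equal length the mutant counts were 1 ribosome biogenesis gene (4.17%), 3 oxidative phosphorylation subunits (4%) and 7 splicing genes (13.2%). Further ones were 7 histones (9.59%), 1 glycolytic gene (7.69%), 0 feeder markers and 13 olfactory receptors (1.18%). Fewer peaks enter under either limit, and no other cause was tested.

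Alternatives for an exon share were not run, because exons were not analysed here. No paired analysis was possible because each line has 1 library per antibody. Depth is unknown, and its part in the number of weak peaks was not tested.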
